A study of Mus musculus with 4 samples.

Results

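The sarcomeric myosin heavy chain genes of mouse striated muscle, Myh1, Myh2, Myh3, Myh4, Myh6, Myh7, Myh7b and Myh8, were examined in skeletal muscle and heart of mice lacking MG56. The 8 genes were chosen by name, out of 18193 genes named on the array, and every probe set annotated to one of these symbols alone was used. This gave 12 probe sets of 45037, with 3 for Myh1, 2 each for Myh4 and Myh6 and 1 for each of the other genes. A further 2 probe sets are annotated to both Myh6 and Myh7 and are described apart. MG56 is another name of Hhatl, a gene of striated muscle.

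The groups were MG56-knockout tibialis anterior (TA), wild-type TA, MG56-knockout heart and wild-type heart, all from C57BL/6J mice aged 9 days after birth. The TA is a fast muscle of the lower leg. Each group is 1 Affymetrix array of pooled RNA. RNA of 3 knockout mice was mixed. The sources used here give neither the number of wild-type mice nor the construction of the knockout allele. With 1 array a group there is no replicate error and no p-value: each ratio compares pools of RNA. In whole tissue, more RNA per cell and more cells of a type cannot be told apart.

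Myosin heavy chains are the motor proteins of the thick filament. Each gene encodes an isoform with its own speed of contraction, and muscles change isoforms as they mature. In the limb muscles of rodents the embryonic chain (Myh3) and the neonatal or perinatal chain (Myh8) give way after birth to the adult fast chains 2A (Myh2), 2X (Myh1) and 2B (Myh4), while slow fibres use the beta chain (Myh7). In the rodent ventricle Myh7 prevails before birth and the faster alpha chain (Myh6) after it, a switch that depends on thyroid hormone. A return of Myh7 is a common sign of cardiac stress in rodents. Myh7b is an ancient relative whose locus holds a microRNA.

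By RefSeq's gene order, Myh3, Myh2, Myh1, Myh4 and Myh8 follow each other on chromosome 11, Myh6 and Myh7 are neighbours on chromosome 14, and Myh7b lies on chromosome 2. The promoter windows of RefSeq's genes (GRCm38.p6, from 250 bases before to 50 after the annotated start) were found for 8 of 8 genes. The windows of Myh2, Myh1, Myh4 and Myh8 are shown because these neighbours were bright in TA and under or close to background in heart, and because they share a run of 14 bases, in capitals. This run is the longest that the 4 windows have in common. Myh3, on the same chromosome, was likewise over the floor in TA and under it in heart. Its window was not part of this search and does not hold the run.

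Myh2 (chr11:67170777-67171076, plus strand): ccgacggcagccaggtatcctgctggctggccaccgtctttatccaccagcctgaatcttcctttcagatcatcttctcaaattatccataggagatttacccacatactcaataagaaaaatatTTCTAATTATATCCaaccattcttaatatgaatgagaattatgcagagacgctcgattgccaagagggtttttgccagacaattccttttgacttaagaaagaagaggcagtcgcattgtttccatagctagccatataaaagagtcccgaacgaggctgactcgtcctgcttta

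Myh1 (chr11:67199852-67200151, plus strand): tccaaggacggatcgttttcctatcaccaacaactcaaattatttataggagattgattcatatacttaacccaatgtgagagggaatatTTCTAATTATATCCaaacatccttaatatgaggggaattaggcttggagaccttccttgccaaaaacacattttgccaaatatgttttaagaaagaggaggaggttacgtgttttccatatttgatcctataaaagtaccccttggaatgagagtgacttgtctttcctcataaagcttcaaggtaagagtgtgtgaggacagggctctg

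Myh4 (chr11:67237562-67237861, plus strand): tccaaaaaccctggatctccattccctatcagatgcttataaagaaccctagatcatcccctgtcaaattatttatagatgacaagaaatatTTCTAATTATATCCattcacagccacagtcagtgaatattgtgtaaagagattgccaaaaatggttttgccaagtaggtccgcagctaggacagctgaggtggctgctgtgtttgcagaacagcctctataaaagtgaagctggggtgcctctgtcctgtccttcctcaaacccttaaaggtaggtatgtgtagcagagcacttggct

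Myh8 (chr11:67276874-67277173, plus strand): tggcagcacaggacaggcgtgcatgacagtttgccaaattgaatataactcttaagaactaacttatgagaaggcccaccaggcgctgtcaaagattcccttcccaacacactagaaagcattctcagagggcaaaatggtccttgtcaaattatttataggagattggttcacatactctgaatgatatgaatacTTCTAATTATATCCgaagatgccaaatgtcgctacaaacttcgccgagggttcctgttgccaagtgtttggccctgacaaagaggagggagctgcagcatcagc

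The shared run starts at -160 in Myh1, -158 in Myh4, -125 in Myh2 and -54 in Myh8, counted from the base before the annotated start as -1. On either strand it was found in 4 of 32851 windows of the table, those of these 4 genes (0.0122%). The run was picked because these 4 windows share it, so that they hold it was fixed in advance. The letters of the MEF2 motif, a binding motif of muscle transcription factors, lay upstream of the run in Myh1, Myh4 and Myh8 and in 3.19% of all windows. A CArG motif was found in Myh4 and in 1.63% of all windows. The Myh3 window held a TATAAA box at -29 and the E-box letters CANNTG at -191.

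The windows of the cardiac neighbours are shown because Myh7 was called different between the heart pools and Myh6 was not. Capitals mark the letters of the MCAT motif GGAATG, the TATA box TATAAA and the E-box CANNTG, on either strand. RefSeq gives Myh7 a second start, 77 bases downstream, whose window holds both E-boxes but not the MCAT letters.

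Myh6 (chr14:54966558-54966857, minus strand): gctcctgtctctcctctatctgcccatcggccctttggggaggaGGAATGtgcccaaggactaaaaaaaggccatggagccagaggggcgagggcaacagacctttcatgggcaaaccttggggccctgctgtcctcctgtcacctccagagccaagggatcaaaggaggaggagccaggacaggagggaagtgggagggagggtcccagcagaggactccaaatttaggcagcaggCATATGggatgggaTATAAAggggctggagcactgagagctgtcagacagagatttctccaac

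Myh7 (chr14:54994577-54994876, minus strand): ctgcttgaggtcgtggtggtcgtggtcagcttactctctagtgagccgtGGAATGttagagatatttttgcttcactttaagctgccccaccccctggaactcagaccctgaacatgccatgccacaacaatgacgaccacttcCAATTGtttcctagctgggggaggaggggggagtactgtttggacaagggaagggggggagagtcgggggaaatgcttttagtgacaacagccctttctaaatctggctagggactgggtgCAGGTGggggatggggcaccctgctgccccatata

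The MCAT letters, which TEAD factors are known to bind, start at -206 in Myh6 and at -201 in Myh7, and they also occur in Myh1 and Myh4. They are in 14.7% of all windows, TATAAA in 13.6% and CANNTG in 72.3%. TATAAA was found in 6 of the 8 genes and CANNTG in 6 of 8. In Myh2 and Myh6 TATAAA lay only downstream of the annotated start, from base 11 and base 2. In Myh8 it lay only on the opposite strand inside the MEF2 letters. The nuclear receptor element AGGTCA was found only in the window of Myh7b (16.3% of all windows), as was the GATA motif AGATAA (11.2%). A match of letters is no evidence that a factor binds there.

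Myh6, Myh7 and Myh7b also carry microRNA genes, on the same strand and within the span of the host gene in RefSeq. They are shown because the host gene Myh7 was called different in heart, with the seed (bases 2 to 8) in capitals. Levels of these microRNAs were not analysed here.

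miR-208a-3p, in Myh6 (chr14:54949072-54949093, minus strand): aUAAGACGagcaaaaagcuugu

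miR-208b-3p, in Myh7 (chr14:54975710-54975731, minus strand): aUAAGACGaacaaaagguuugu

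miR-499-5p, in Myh7b (chr2:155622893-155622913, plus strand): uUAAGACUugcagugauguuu

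The miRNAs of Myh6 and Myh7 share the seed UAAGACG and differ at 3 of 22 positions, and that of Myh7b has the seed UAAGACU.

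The values are MAS5 signals on a linear scale, 1 per probe set and array. The 4 arrays share a scale, with trimmed means between 496.4 and 496.8. A signal under the median of all signals, 101.3, was raised to this floor before a ratio was taken, and a ratio that involves the floor is written as "at least". The probe set of highest mean signal stands for a gene, and a gene is called different at 1.5-fold between genotypes and at 2-fold between tissues. The targeted gene Hhatl had a signal of 1078 in knockout and 5491 in wild-type TA, and of 880 and 2110 in heart, 5.09-fold and 2.40-fold lower in the knockout. All 8 heart muscle marker genes were over the floor in both heart pools, and all 10 skeletal muscle marker genes in both TA pools.

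**Figure D1:**
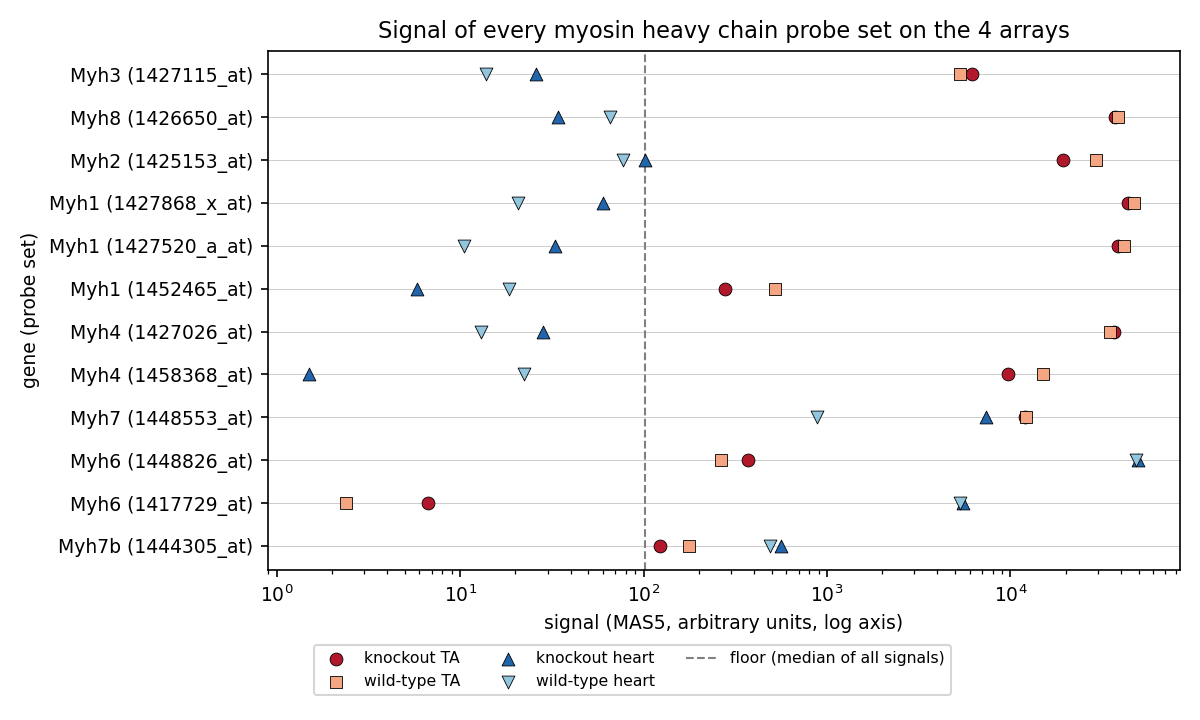
Signal (MAS5, arbitrary units, log axis) of each of the 12 probe sets on the 4 arrays, 1 point per array, with the floor of 101.3 as a dashed line. The chromosome 11 genes are over the floor in TA and close to it or under it in heart. Myh6 is far brighter in heart, and in TA its main probe set is over the floor and its other one under it. In the row of Myh7 the knockout heart stands far to the right of the wild-type heart.

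The comparison of the wild-type tissues shows where each isoform is used at this age. Of the 8 genes, 6 were at least 2-fold higher in wild-type TA and 2 in wild-type heart, where among all 11872 measured genes 7.56% were called higher in TA and 7.8% lower. The developmental gene Myh3 had a signal of 5286 in TA and 13.9 in heart, at least 52.2-fold higher in TA. The perinatal gene Myh8 had 38860 and 65.8, at least 384-fold higher. Embryonic and perinatal isoforms were thus both well over the floor in TA on day 9.

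The adult fast genes had the same distribution. Myh1 had a signal of 47370 in wild-type TA and 20.8 in heart, at least 468-fold higher in TA on an _x_at probe set, and at least 5.16-fold on its probe set with no such mark (523 and 18.5). Myh4 had 35006 and 13.0, at least 346-fold higher. Myh2 had 29156 and 77.1, at least 288-fold higher. All 3 were under the floor in wild-type heart, so these folds are lower bounds set by the floor.

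The cardiac isoforms differed from each other. Myh6 had a signal of 265 in wild-type TA and 48296 in heart, 182-fold higher in heart, and its second probe set had 2.4 and 5344. Myh7 had 12191 in TA and 886 in heart, 13.8-fold higher in the skeletal muscle, where it marks slow fibres. Myh7b had 176 in TA and 491 in heart, 2.79-fold higher in heart, and with the floor at the 75th percentile of all signals the log2 ratio of Myh7b was -0.06. Several members were among the brightest probe sets of their arrays. Myh1 was at position 4 of 45037 in both TA pools, Myh8 at 14 and 19, Myh4 at 17 and 37, and Myh6 at 5 in knockout and 3 in wild-type heart. Whether such signals still respond in proportion to the amount of RNA was not tested.

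In the heart, Myh7 was the member that differed between genotypes. The signal of Myh7 was 7354 in the knockout pool and 886 in the wild-type pool, a log2 ratio of 3.05 or 8.30-fold higher in the knockout. The knockout heart thus lay below both TA pools, at 12035 and 12191, and far above the wild-type heart. Only 1 probe set reads Myh7 alone.

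Myh6 differed little between the heart pools. Its main probe set had a signal of 49851 in knockout and 48296 in wild-type heart, a log2 ratio of 0.05, and the second 5503 and 5344, a log2 ratio of 0.04. Both probe sets of the alpha chain thus gave nearly the same ratio, which with quantile normalization was -0.04. Myh7b had signals of 564 and 491, a log2 ratio of 0.20. Myh2 had 102 in knockout and 77.1 in wild-type heart, at the floor, and the signals of Myh1, Myh3, Myh4 and Myh8 in heart, from 13.0 to 65.8 on their main probe sets, did not reach the floor.

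Of the 8 genes, 4 were measured in the heart, 1 of them was at least 1.5-fold higher in the knockout and 0 were lower. Among all 11452 genes measured there, 6.86% were called in either direction and 2.67% as higher. Among the 4389 genes with a mean heart signal of 1000 or more, where the ratios scatter less, 1.39% were called higher. The median log2 ratio was 0.12 over the 4 members and -0.002 over all genes. Ranked by log2 ratio, Myh7 was at position 1 of 11452, Myh7b at 2480, Myh6 at 4857 and Myh2 at 5456.

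The balance of the cardiac pair moved with Myh7. The log2 ratio of the Myh7 to the Myh6 signal was -2.76 in knockout and -5.77 in wild-type heart, a difference of 3.01 or 8.04-fold. As a share of the summed signal of the 8 genes, Myh7 made up 12.7% in knockout and 1.78% in wild-type heart, and Myh6 85.9% and 96.9%. The sum itself was 58019 and 49864. These are shares of array signal and not of transcripts, because probe sets differ in how strongly they bind, so a gene's share is compared only with its own share on another array. The share of Myh7 was 10.9 percentage points higher in the knockout, and 17.4 points higher when the median of a gene's measured probe sets stood for it.

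The 2 probe sets annotated to both Myh6 and Myh7 hardly differed between the heart pools. One had signals of 37807 in knockout and 38780 in wild-type heart, a log2 ratio of -0.04, and the other 7261 and 6566, a log2 ratio of 0.15. In TA the first had 4549 in knockout and 4796 in wild type, and the other was under the floor at 72.0 and 46.4. These signals belong to no single gene. The second of them thus stayed under the floor in TA, where Myh7 itself was bright.

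**Figure D2:**
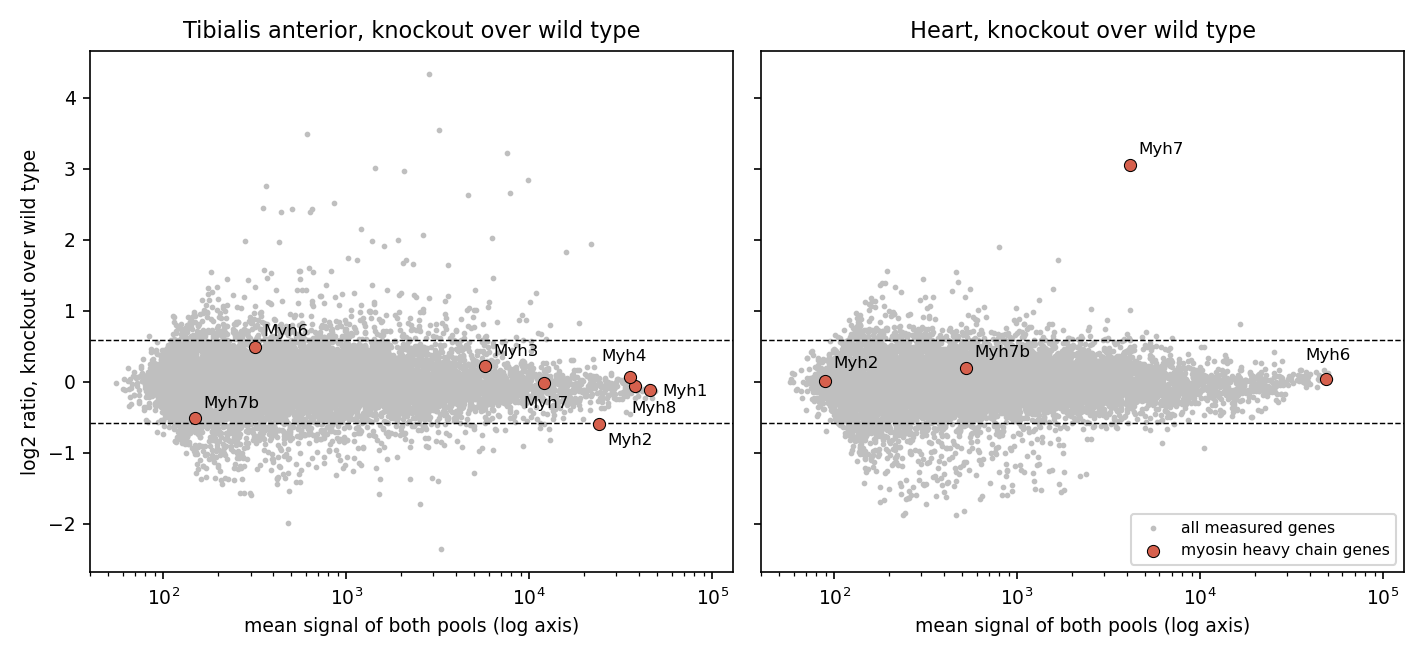
Log2 ratio of knockout over wild-type signal against the mean signal of both pools (log axis) for every measured gene in grey and the myosin heavy chain genes in red, in TA on the left and heart on the right; dashed lines mark 1.5-fold. Myh7 in heart, at 3.05, stands apart from the grey points, while in TA only Myh2, at -0.60, lies past a line.

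In TA the myosin heavy chain genes differed little between genotypes on their main probe sets. Myh2, the 2A chain of fast oxidative fibres, had a signal of 19299 in knockout and 29156 in wild-type TA, a log2 ratio of -0.60 or 1.51-fold lower. This lies just past the threshold, and with quantile normalization over all 4 arrays the log2 ratio of Myh2 was -0.52 and within the tissue -0.53, both short of it. Of the 8 genes, all measured in TA, 1 was called lower and 0 higher. Among all 11528 genes measured, 8.64% were called in either direction and 4.44% as lower, and among the 4253 with a mean TA signal of 1000 or more, 2.42% as lower.

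The developmental isoforms differed little. Myh3 had a signal of 6158 in knockout and 5286 in wild-type TA, a log2 ratio of 0.22. Myh8 had 37359 and 38860, a log2 ratio of -0.06 as deposited and 0.07 with quantile normalization. Neither reached 1.5-fold.

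The other adult fast genes gave different answers on different probe sets. The brightest probe set of Myh1, the 2X chain, had 43845 in knockout and 47370 in wild-type TA, a log2 ratio of -0.11, and a second had 38852 and 41571, a log2 ratio of -0.10. The third probe set of Myh1 had 278 and 523, and its log2 ratio was -0.91, or 1.88-fold lower in the knockout. The first is of the _x_at type, in which some probes can also bind related sequences, and the second of the _a_at type, which reads several transcripts of the gene, so that only the third carries neither mark.

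Myh4, the 2B chain of the fastest fibres, showed the same split. Its main probe set had 36524 in knockout and 35006 in wild-type TA, a log2 ratio of 0.06. The other had 9681 and 14989, a log2 ratio of -0.63 or 1.55-fold lower. Among 20165 measured probe sets with 1 gene symbol, 4.59% were called lower in TA, against 3 of the 11 measured here, 1 each of Myh1, Myh2 and Myh4. The gap of -0.69 on the log2 scale between the probe sets of Myh4 was matched or exceeded by 3.39% of 5008 such probe sets of genes with a main signal of 1000 or more. For Myh1 the gap of -0.80 was matched or exceeded by 1.96% of them. Over all 8608 such probe sets, bright or dim, the shares were 5.47% and 3.25%. Which part of a transcript each probe set reads was not analysed here.

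The cardiac members were dim in TA apart from Myh7. Myh7 had a signal of 12035 in knockout and 12191 in wild-type TA, a log2 ratio of -0.02 as deposited and 0.04 with quantile normalization over all arrays, so no difference in the slow chain was detectable. Myh6 had 373 and 265, a log2 ratio of 0.49, and its second probe set was under the floor at 6.7 and 2.4. Myh7b had 123 and 176, a log2 ratio of -0.51, close to the floor. The median log2 ratio over the 8 members was -0.04, and -0.01 over all genes.

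The shares in TA moved by a few points at most. Myh2 made up 12.4% of the summed signal in knockout and 17.3% in wild-type TA. Myh4 made up 23.5% and 20.8%, Myh8 24.0% and 23.1%, Myh3 3.96% and 3.14%, Myh7 7.73% and 7.24%, and Myh1 28.2% and 28.1%. The knockout share minus the wild-type share of Myh2 was -4.93 points. The log2 ratio of the Myh4 to the Myh8 signal, an adult against a perinatal isoform, was -0.03 in knockout and -0.15 in wild-type TA, that of Myh1 to Myh8 0.23 and 0.29, and that of Myh4 to Myh3 2.57 and 2.73. The differences of these 3 pairs on their main probe sets were 0.12, -0.06 and -0.16. They leave out Myh2, whose own log2 ratio of -0.60 stood beside -0.06 for Myh8 and 0.22 for Myh3.

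**Figure D3:**
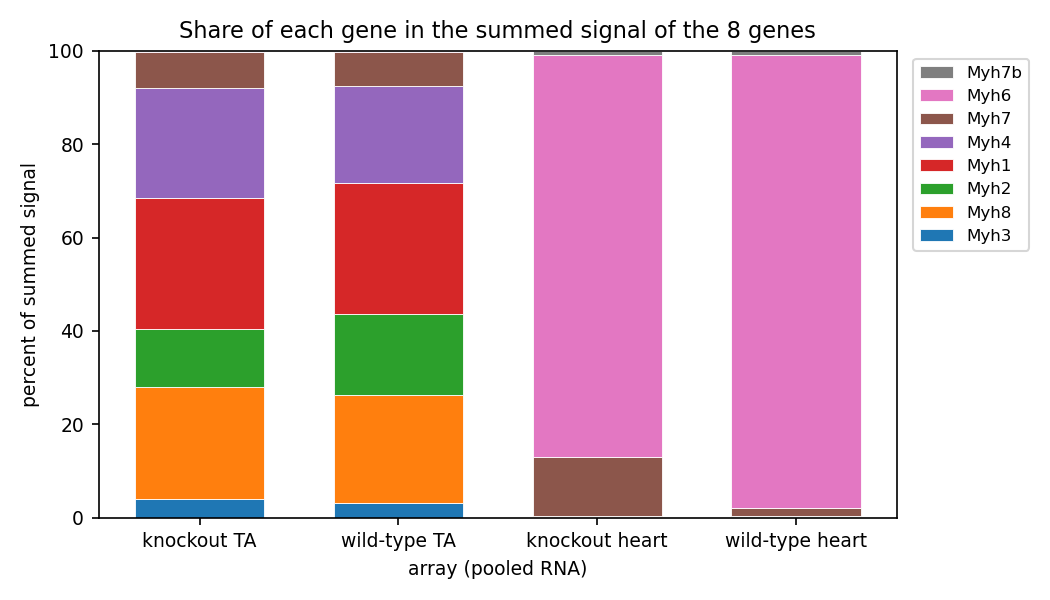
Share of each of the 8 genes in their summed signal, in percent, 1 bar for each array of pooled RNA. Myh7 (brown) takes up 12.7% of the bar of the knockout heart and 1.78% of that of the wild-type heart, and Myh2 (green) 12.4% in knockout and 17.3% in wild-type TA.

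Set side by side, 4 members were measured in both tissues. The TA log2 ratio minus the heart log2 ratio was -3.07 for Myh7, -0.71 for Myh7b, -0.61 for Myh2 and 0.45 for Myh6. By this difference 3 of the 4 were at least 1.5-fold apart, where 11.5% of the 10802 genes measured in both tissues were. Myh7 was at the lowest position of all 10802, the gene most in favour of the knockout heart. The value of Myh2 rests on heart signals at the floor, and that of Myh7b on signals from 123 to 564.

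Likeness was measured over the 4 arrays as the Euclidean distance between log2 signals centred on their mean, among 8408 genes with at least 1 signal of 4 times the floor. The 3 genes nearest to Myh2 were Neb, which encodes the thin filament protein nebulin, at 0.31, the fast troponin C gene Tnnc2 at 0.41 and Atp1b4 at 0.42. Their knockout over wild-type log2 ratios in TA were -0.24, -0.14 and -0.01. The genes nearest to Myh7 lay farther off: Igfbp3, which encodes a binding protein of insulin-like growth factors, was at 1.53, 2310040G24Rik at 1.65 and the splicing factor gene Rbfox1 at 1.72. In heart these were 2.01-fold, 1.92-fold and 1.60-fold higher in the knockout, each well short of the 8.30-fold of Myh7.

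Of the genes whose products join myosin in the thick filament, 10 of 12 were on the array. In TA 2 of 9 measured were called lower, where 4.44% of all genes were, and 0 higher: Mybph, which encodes a relative of myosin-binding protein C, with signals of 2963 in knockout and 5614 in wild type (1.90-fold lower), and the M-band gene Myom3, with 311 and 480 (1.55-fold lower). In heart 0 of 7 were called, where 6.86% of all genes were called in either direction, so this count is close to background. The fast gene Mybpc2 had 22323 and 28875 in TA, and Ttn, the giant ruler protein titin, had 43260 and 50890. The cardiac gene Mybpc3 had 24712 in knockout and 24240 in wild-type heart, beside the 8.30-fold difference of Myh7.

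Genes for folding, assembly and turnover of myosin did not reach 1.5-fold in either tissue, 0 of 10 measured in each. Among all genes, 8.64% were called in either direction in TA and 6.86% in heart. The myosin chaperone gene Unc45b had 4180 in knockout and 4890 in wild-type TA, and 7161 and 5991 in heart. The ubiquitin ligase gene Trim63, whose product targets myosin heavy chain, had 5479 and 4466 in TA and 10189 and 9497 in heart. Median log2 ratios were -0.04 in TA and 0.05 in heart.

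The non-sarcomeric heavy chains, used by smooth muscle and by nearly all cells, had no counterpart of Myh7. Of Myh9, Myh10, Myh11 and Myh14, 0 of 4 were called in heart. In TA 1 was, Myh14, with 569 in knockout and 346 in wild type, 1.64-fold higher. Of all genes measured in TA, 8.64% were called in either direction, and of those in heart 6.86%. With 4 genes, 0 called in heart is close to that share.

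Known regulators of the choice among these genes were read from 36 of 38 on a list. In TA 1 of 31 measured was called higher and 1 lower, close to the 8.64% of all genes called in either direction. Rcan1, a target and inhibitor of calcineurin, had 3363 in knockout and 1699 in wild type (1.98-fold higher). Sox6, a repressor of slow fibre genes, had 2080 and 3188 (1.53-fold lower). In heart 1 of 27 was called higher and 1 lower, close to the 6.86% of all genes called in either direction there. The coactivator gene Ppargc1a had 5865 and 3770 (1.56-fold higher). Dio2, whose enzyme activates thyroid hormone, had 144 and 295 (2.05-fold lower), signals near the floor. The thyroid hormone receptor gene Thra had 1588 in knockout and 1221 in wild-type heart, a log2 ratio of 0.38. Median log2 ratios of the list were -0.04 in TA and 0.12 in heart.

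Transcripts from within the chromosome 11 cluster were looked up for their position. Myhas, a noncoding antisense gene between Myh1 and Myh4, had signals of 5831 in knockout and 5451 in wild-type TA, a log2 ratio of 0.10, and its probe set and the brightest one of Myh1 are annotated to the same sequence record. The noncoding gene 2310065F04Rik, also called linc-Myh, between Myh3 and Myh2, had 176 and 370 in TA, 2.11-fold lower in the knockout. Both were under the floor in heart.

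Markers of other cells were read beside these results. In heart 8 of 10 skeletal muscle markers stayed below the floor in both pools, among them Actn3 at 7.7 in knockout and 7.4 in wild type and Tnnt3 at 35.1 and 19.1. Those over it were Ckm, which heart also expresses, and Tnni2, with 132 and 125. The summed signal of 6 atrial markers was 49977 in knockout and 63401 in wild-type heart, with 0 of 6 at 1.5-fold (median log2 ratio -0.35), and that of 8 heart muscle markers 159535 and 161692. Of 8 slow fibre markers, 1 was higher in knockout heart, Tnni1 at 1.76-fold, where 2.67% of all genes were called higher. The slow fibre markers had summed signals of 190894 and 179992 in heart. All but Tnnt1 (1454 in wild-type heart and 7316 in wild-type TA) were brighter in wild-type heart than in wild-type TA. In heart the list thus does not measure slow skeletal fibres. The part of atrial and slow fibre genes in the difference of Myh7 was not tested. In TA the slow fibre markers summed to 63293 in knockout and 60277 in wild type. Only the calcium pump gene Atp2a2 of these 8 was called, 2.17-fold higher, where 8.64% of all genes were called in either direction. The atrial list had summed signals of 31465 in knockout and 18177 in wild-type TA and a median log2 ratio of 0.82. Of its 3 genes measured there 2 were called higher, again beside 8.64% of all genes in either direction. These were Sln, which encodes the calcium pump inhibitor sarcolipin, with 23922 and 13520 (1.77-fold), and the light chain gene Myl4, with 6406 and 3417 (1.88-fold), both also known from immature skeletal muscle, while the atrial genes Myl7, Nppa and Bmp10 were below the floor there. Skeletal muscle markers summed to 239957 and 271664 in TA, a median log2 ratio of -0.16 with 0 of 10 called, and the part of any of these lists in the ratio of Myh2 was not tested. The heart muscle markers were near background in TA apart from Tnnt2, with 1787 and 1563. Mybpc3, with 127 in knockout and 28.2 in wild type, was just over the floor in the knockout only. Smooth muscle, fibroblast, endothelial and leukocyte markers had 0 genes called in either tissue. Measured were 4 smooth muscle markers in TA and 5 in heart, and in each tissue 6 fibroblast, 5 endothelial and 5 leukocyte markers. Among all genes, 8.64% were called in either direction in TA and 6.86% in heart, so 0 called in lists this short is close to background. Whether the share of these cells differed between genotypes was not tested.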

How the data were processed

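RNA of 4 pools was hybridised to 1 array each. The signal intensities deposited by the authors are on a linear scale, 1 per probe set, and per the submitters' processing notes come from MAS5; the sources used here give neither its version nor detection calls. Of 45037 probe sets, 34945 had 1 gene symbol in the platform's annotation, 932 had several and 9160 none, and only the first were used for genes. The floor, the brightest probe set per gene, the log2 ratios and the thresholds are given in the report. No test within a tissue was possible with 1 array a group, none across tissues was made, and the number of arrays limits the precision. The members and the gene lists were chosen with earlier results of these data known. Named were all members, Hhatl, the 3 nearest genes of each member called, the list members past 1.5-fold, and others to illustrate a list, a locus or a marker, chosen after their values were seen; so was the limit of 1000 for bright genes. Alternatives were centring, quantile normalization, other floors and other rules for probe sets. The computation (Python 3.11.15, pandas 2.3.3, numpy 2.4.6) was tested on simulated data with known fold changes. Promoters and microRNAs are RefSeq's.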

Additional observations from a re-analysis of the deposited data

Results flagged for a closer look

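Knockout ratios pointed in opposite directions in the tissues for 3 of the 4 members measured in both, without a test of the difference. The share of all genes with ratios of opposite sign was not worked out, so this count has no background beside it. The TA minus heart log2 ratio was -3.07 for Myh7, -0.61 for Myh2, whose heart signals lie at the floor, and -0.71 for Myh7b. The TA ratio of Myh7 was close to 0 and its sign depends on the scaling. The heart log2 ratio of Myh2 was 0.01, so its sign carries little weight. No group had enough arrays for a search for outlying samples.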

How the results depend on the processing

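Over all alternatives the log2 ratio of Myh7 in heart ran from 3.05 to 3.14 and that of Myh2 in TA from -0.60 to -0.52. In TA, 0 members were called with quantile normalization over all arrays or within each tissue, and 2 without the _x_at, _s_at and _a_at probe sets, where Myh1 stood at -0.91 and Myh2 at -0.60. In heart, 3 members were called when the floor was set at the 25th percentile and 5 without a floor. Added were Myh1 and Myh8, and without a floor also Myh3 and Myh4, whose heart signals are under the median of all signals. For the difference between tissues, 5 and 7 members were called in the same settings, and 1 for a floor at the 75th percentile, where only Myh7 was measured in both tissues. The share of all genes called was worked out for the main setting only, so the counts under other settings have no background beside them. The gain of Myh7 in share of heart signal was 17.4 points with the median over probe sets and 10.5 to 12.2 otherwise. Of 198 values of single members under an alternative, 194 kept their side of the threshold. The others were Myh1 and Myh2 above and Myh7b between the tissues. Only members measured in the main setting are among the 198. Left out in heart and in the difference between tissues are thus Myh1, Myh3, Myh4 and Myh8, whose heart calls under lower floors are given above. No called value reversed; among values short of the threshold, the sign of Myh7 and Myh8 in TA and of Myh6 in heart turned with quantile normalization, and that of Myh4 in TA with the median over probe sets (-0.29). No paired analysis was possible because each group has 1 array. Low signals limit Myh7b, Myh6 in TA and the fast genes in heart, where ratios are bounds or were not taken.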
